A study of Homo sapiens with 4 samples.

Results

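The 10 genes described here are JUN, JUNB, JUND, FOS, FOSL1, FOSL2, ATF3, EGR1, IER2 and MYC, which encode subunits of the transcription factor AP-1 and other immediate early factors. They were chosen by symbol, with earlier results of these data known, and all 10 were found among the 17472 genes of the deposited table. RNA came from H1, an established human embryonic stem cell line, kept in E8 medium, a defined medium whose listed components include FGF2 and TGF-beta. One group is WT H1 cells (2 libraries) and the other is H1 cells overexpressing MEK5DD (2 libraries). MEK5DD is MAP2K5 with a pair of residues changed to aspartate. It was brought in by lentivirus, and the transduced cells were taken through puromycin selection to give 1 line. Libraries from cells given the virus and puromycin without MEK5DD are not analysed here, so MEK5DD cannot be told apart from delivery, selection or the line itself. The labels do not say whether the replicates are separate cultures, and p-values then measure only how far these libraries scatter, which could be technical scatter.

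AP-1 is a dimer of basic leucine zipper proteins: a JUN protein pairs with another JUN, with a FOS protein or with an ATF protein, and the pair binds a short palindrome in DNA. Immediate early genes are transcribed within minutes of a growth factor or stress signal without new protein synthesis, and their messengers are short-lived. MAP kinases act on them through factors already bound at their promoters, such as SRF with its ETS partners at CArG boxes, CREB and ATF proteins at cyclic AMP response elements (CRE), and MEF2 factors, which ERK5, the substrate of MEK5, phosphorylates.

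The libraries held 14908486 to 17628945 reads, recovered from the normalised values. MAP2K5, the gene introduced, had a normalised read count of 344 and 315 in WT and 3382 and 3558 in MEK5DD. The same measure for MAPK7, which encodes ERK5, was 336 and 328 in WT and 392 and 346 in MEK5DD (limma, adjusted p = 0.398). All 8 defining markers of embryonic stem cells in the fixed list were present, and their summed normalised count was 148415 to 150999 in WT and 143408 to 152887 in MEK5DD. Of these markers NANOG was higher (0.26, limma adjusted p = 0.0117) and SOX2 lower (-0.20, 0.0437) in MEK5DD on the log2 scale. Neither passed when WT replicate 1 (adjusted p = 0.167 and 0.486) or WT replicate 2 (0.262 and 0.349) was left out. The MEK5DD pair was less alike than the WT pair, with a chi-square per degree of freedom of 6.11 against 1.88.

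Promoter sequences of 8 of the 10 genes were taken from RefSeq's table (GRCh38.p14). FOSL1 has no entry there, and MYC was left out of the search. The stretches below are those of JUN and EGR1, the members that changed most, in opposite directions, together with those of ATF3, which shares an element with JUN, of JUND, which holds the full CRE, and of FOS, which encodes the best known partner of JUN. All are written 5′ to 3′ on the gene's strand, and capitals mark the matches described after them.
JUN, chr1:58784088-58784117, minus strand: gggTGACATCAtgggCTATTTTTAGgggtt
EGR1, chr5:138465329-138465478, plus strand: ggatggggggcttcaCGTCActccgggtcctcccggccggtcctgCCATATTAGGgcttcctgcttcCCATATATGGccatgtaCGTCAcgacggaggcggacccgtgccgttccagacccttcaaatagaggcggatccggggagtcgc
JUND, chr19:18281693-18281832, minus strand: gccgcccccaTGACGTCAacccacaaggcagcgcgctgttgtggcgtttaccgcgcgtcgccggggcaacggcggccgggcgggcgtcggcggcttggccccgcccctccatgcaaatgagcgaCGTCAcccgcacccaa
ATF3, chr1:212565257-212565332, plus strand: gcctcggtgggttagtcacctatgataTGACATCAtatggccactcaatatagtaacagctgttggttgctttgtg
FOS, chr14:75278751-75278780, plus strand: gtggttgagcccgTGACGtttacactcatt

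Motifs were searched on both strands in the 250 bases before each RefSeq start. In JUN the capitals mark TGACATCA, a variant of the AP-1 palindrome 60 to 67 bases before the start, and a MEF2 site 46 to 55 bases before it. Among the 8 members, the MEF2 site was matched in JUN, and 2.8% of the 35116 promoters in the table hold one. The same TGACATCA lies 116 to 123 bases before the upstream start of ATF3 (2.37% of promoters). ATF3 has another start in the table, whose window lacks these letters. In EGR1 the capitals mark 2 CArG boxes, 96 to 105 and 74 to 83 bases before the start, and 2 CRE cores, TGACG, read on the opposite strand. Among the 8 members searched, EGR1 was the one with a CArG box in this window (1.16% of promoters). Bases farther upstream were not searched in any member. JUND holds the full CRE, TGACGTCA, 193 to 200 bases before its start (1.65% of promoters), which overlaps 2 CRE cores, and 1 more core nearer the start. The core alone is found in 21.2% of promoters. FOS holds 1 core 60 to 64 bases before its start. Cores were also matched in FOSL2 (2), JUNB (1), IER2 (1) and, upstream of the stretch shown, JUN (1). GENCODE v29 starts JUN and FOS upstream of these RefSeq starts, so the JUN stretch and part of the FOS stretch lie within a first exon there. A match of letters is a description and does not show that a factor was bound in these cells.

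In MEK5DD cells JUN rose 2.56-fold, ATF3 1.52-fold, JUND 1.43-fold, MYC 1.38-fold and FOSL2 1.37-fold, and EGR1 fell (3.19-fold lower). JUNB, FOS, FOSL1 and IER2 had higher means in MEK5DD but did not pass the test. By limma on log2(value + 1), at an adjusted p of 0.05, 5 of the 10 members were higher and 1 was lower, against 14.2% of the 15721 genes tested (7.69% higher and 6.47% lower). On the recovered reads edgeR also called 5 members higher and 1 lower (14.5% of genes in that test) and DESeq2 called 4 higher and 1 lower (9.71% of genes). The median log2 fold change of the members was 0.46, and that of all genes tested was -0.0023. In 9 members both MEK5DD values lay above both WT values and in EGR1 both lay below. Such separation was seen in 56.2% of all genes tested (28.2% higher and 28% lower), and the gap between the groups is therefore given for each member below. In bulk RNA, a change in the number of cells that express a gene and a change in RNA per cell cannot be told apart. Folds are given on the log2(value + 1) scale and understate changes at low counts.

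**Figure D1:**
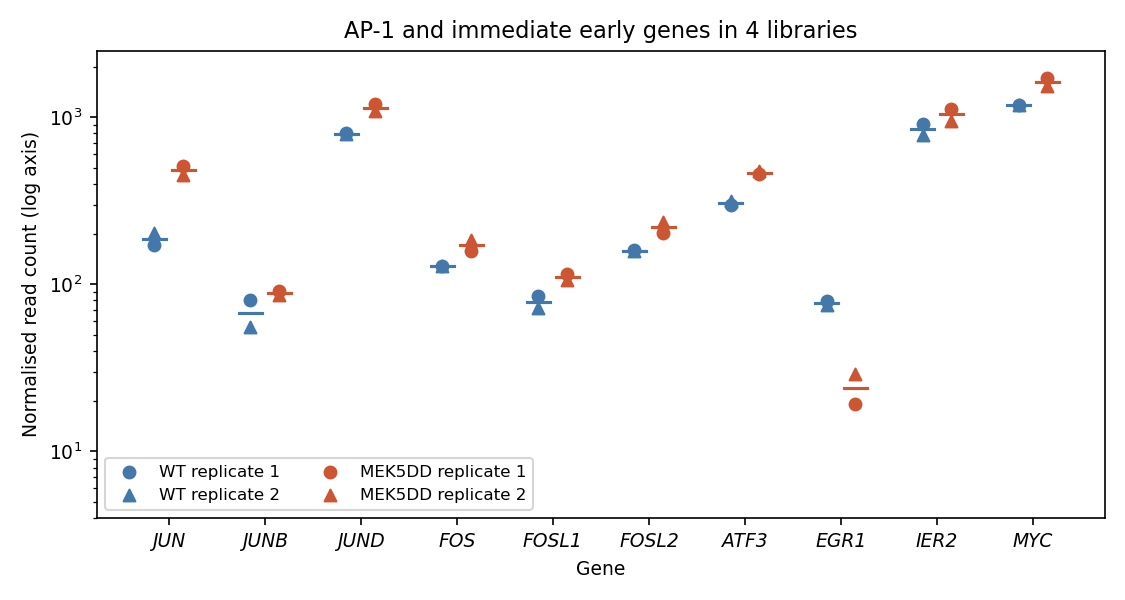
Normalised read count (log axis) of the 10 genes in each library, with circles for replicate 1, triangles for replicate 2 and a bar at the mean of each group. EGR1 lies lower in MEK5DD (19.1 and 28.9) than in WT (79.3 and 75.0), and the other 9 genes lie higher.

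JUN is a single-exon gene at chromosome 1, 58780788 to 58784327 (GRCh38, GENCODE v29, minus strand), and encodes the AP-1 subunit that JNK phosphorylates. Its normalised read count was 173 and 202 in WT and 509.8 and 452 in MEK5DD. The lower MEK5DD library stood 2.24-fold above the higher WT library, while replicates of a group differed by at most 1.17-fold. The log2 fold change was 1.36 (SE 0.12, 95% interval 1.10 to 1.61), with an adjusted p of 1.4e-05 from limma. Among all genes tested, 129 had a larger log2 fold change. JUN was the member whose call held under all 14 alternative settings, with a log2 fold change of 1.24 to 1.47.

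JUND encodes a subunit that is made more steadily than JUN in resting cells. JUND lies at chromosome 19, 18279760 to 18281622, and had a normalised read count of 805 and 791 in WT and 1192 and 1087 in MEK5DD. The groups stood 1.35-fold apart at their nearest values, and JUND had a log2 fold change of 0.51 (SE 0.08, limma adjusted p = 0.0011). Without the mean-variance trend of limma, which lets the spread of a gene borrow from genes of like abundance, the adjusted p of JUND was 0.0767.

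JUNB encodes a subunit that can oppose JUN. Its normalised read count was 80.2 and 55.2 in WT and 91.8 and 85.7 in MEK5DD. The WT pair differed 1.45-fold, more than the 1.07-fold gap between the groups. Its log2 fold change of 0.41 (95% interval -0.040 to 0.86, limma adjusted p = 0.221) was 0.67 without WT replicate 1 and 0.14 without WT replicate 2. JUNB overlaps HOOK2 on the opposite strand, and the strand setting of the counting is not known here. HOOK2 stood at 450.1 and 460.4 in WT and 439 and 432 in MEK5DD (limma adjusted p = 0.699).

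Within a library, the ratio of JUN to JUND does not depend on the size factor. It was 0.215 and 0.257 in WT and 0.428 and 0.417 in MEK5DD, so JUN gained on JUND by 1.80-fold (log2 difference 0.85, SD within groups 0.13). The groups did not overlap, and the exact two-sided permutation p was 0.333, the smallest that 2 against 2 libraries can give. Divided by the exon length of GENCODE v29, the summed level of the 3 JUN family genes was 525 and 512 normalised reads per kilobase in WT and 834 and 759 in MEK5DD. JUND made up 82.3% and 82.9% of that sum in WT and 76.7% and 76.9% in MEK5DD. The share of JUN was 9.29% and 11.2% in WT and 17.3% and 16.9% in MEK5DD. The share of JUNB was 8.39% and 5.93% in WT and 6.04% and 6.21% in MEK5DD, which overlap.

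FOS proteins bind DNA as partners of JUN proteins and do not pair with each other. FOSL2 had a normalised read count of 160.3 and 158 in WT and 203 and 237 in MEK5DD. Its log2 fold change was 0.46 (SE 0.13, limma adjusted p = 0.0348). FOSL2 did not pass when WT replicate 1 (adjusted p = 0.116), WT replicate 2 (0.140) or MEK5DD replicate 2 (0.0889) was left out, nor with no trend (0.121) or with DESeq2 (0.142). FOSL2 also overlaps a pair of noncoding genes that are not among those listed.

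FOS itself, the founding member of that family, stood at 129 in both WT libraries and at 159 and 184 in MEK5DD (normalised read counts). The WT pair differed by 1.00-fold and the MEK5DD pair by 1.16-fold. The log2 fold change of FOS was 0.41 (95% interval 0.10 to 0.71) with a limma adjusted p of 0.0742. Without MEK5DD replicates 1 and 2 it was 0.51 and 0.30. Such a fit leaves 1 MEK5DD library, so its spread within groups comes from the WT pair. FOSL1, which encodes FRA-1, had a normalised read count of 85.4 and 71.9 in WT and 114 and 107 in MEK5DD. Its log2 fold change was 0.49 (95% interval 0.12 to 0.86, limma adjusted p = 0.0764). That change was 0.44 and 0.54 without MEK5DD replicates 1 and 2, and 0.61 and 0.37 without WT replicates 1 and 2.

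The 3 FOS family genes kept like proportions in both groups. Their summed level was 107 and 100.1 normalised reads per kilobase of exon in WT and 138 and 147 in MEK5DD. The share of FOS was 37.0% and 39.8% in WT and 35.6% and 38.8% in MEK5DD, that of FOSL1 42.2% and 38.1% against 43.9% and 38.5%, and that of FOSL2 20.9% and 22.1% against 20.5% and 22.6%. Each of these ranges overlaps between the groups. FOSL1 took the largest share in replicate 1 of each group and FOS in replicate 2. With the longest coding transcript as the length, FOS took the largest share in all 4 libraries (42.7% to 47.3%).

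ATF3 encodes an AP-1 partner that stress, p53 and growth signals induce. It lies at chromosome 1, 212565334 to 212620777, and had a normalised read count of 299 and 314 in WT and 456 and 477 in MEK5DD. Replicates differed by 1.05-fold in each group and the groups stood 1.45-fold apart at their nearest values. This gave a log2 fold change of 0.61 (SE 0.10, limma adjusted p = 0.0014), between 0.57 and 0.64 in the alternatives. With no trend in the fit ATF3 missed the threshold (adjusted p = 0.0544).

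EGR1 encodes a zinc finger factor of the growth factor response and lies at chromosome 5, 138465490 to 138469315. Its normalised read count was 79.3 and 75.0 in WT and 19.1 and 28.9 in MEK5DD. These rest on 90, 72, 21 and 29 recovered reads. Exact Poisson 95% intervals of the normalised counts, which cover counting error only, were 63.7 to 97.4 and 58.7 to 94.4 in WT and 11.8 to 29.2 and 19.4 to 41.5 in MEK5DD. The intervals of the groups did not overlap, and the MEK5DD pair differed 1.51-fold. EGR1 had a log2 fold change of -1.67 (SE 0.26, 95% interval -2.23 to -1.12, limma adjusted p = 0.001), and 41 of the genes tested had a lower one. In fits that left out 1 library it lay between -1.96 (without MEK5DD replicate 2) and -1.39 (without MEK5DD replicate 1). With no trend in the fit EGR1 missed the threshold (adjusted p = 0.0512).

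The ratio of EGR1 to JUN within a library was 0.462 and 0.374 in WT and 0.0393 and 0.0659 in MEK5DD. It was therefore 8.17-fold lower in MEK5DD (log2 difference -3.03, SD within groups 0.40; exact two-sided permutation p = 0.333, the smallest possible). No library of one group reached the values of the other.

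IER2, a short nuclear protein gene of the immediate early class, had a normalised read count of 906 and 785 in WT and 1125 and 954 in MEK5DD. Replicates differed 1.15-fold in WT and 1.18-fold in MEK5DD, more than the 1.05-fold gap between the groups. IER2 had a log2 fold change of 0.30 (95% interval 0.081 to 0.51, limma adjusted p = 0.0661). That change was 0.18 and 0.41 without MEK5DD replicates 1 and 2, and 0.40 and 0.19 without WT replicates 1 and 2.

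MYC encodes a basic helix-loop-helix factor that drives growth genes as a dimer with MAX. Its normalised read count was 1183 and 1177 in WT and 1708 and 1543 in MEK5DD. The groups stood 1.30-fold apart at their nearest values, and the WT pair differed by 1.01-fold. MYC had a log2 fold change of 0.46 (SE 0.08, limma adjusted p = 0.0016), and missed the threshold with no trend in the fit (adjusted p = 0.0925).

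**Figure D2:**
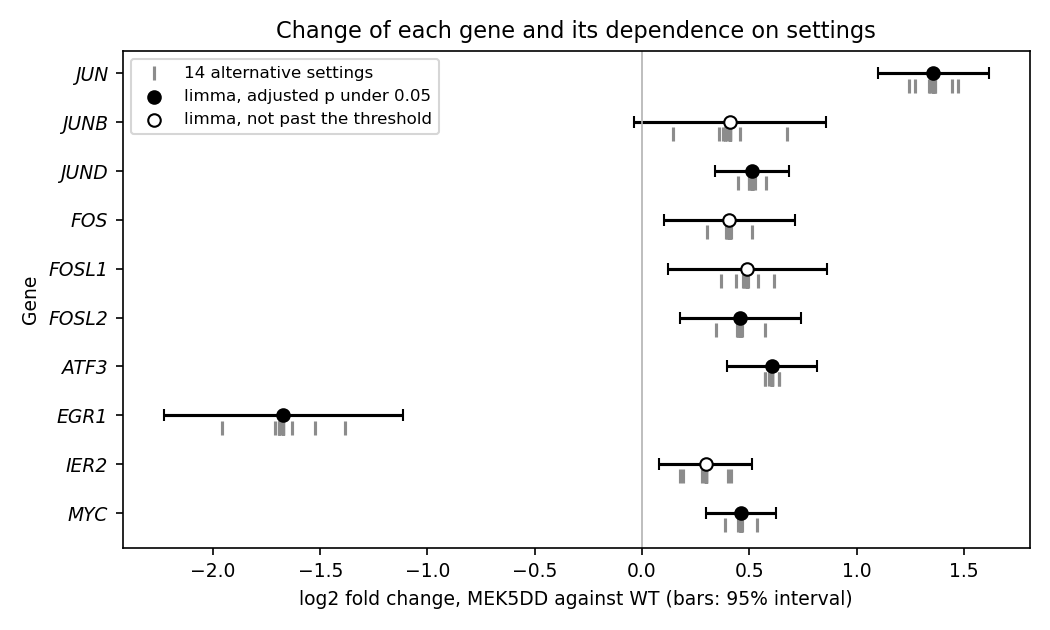
The log2 fold change of MEK5DD against WT for each gene (point, with its 95% interval), filled where the adjusted p from limma is under 0.05, and grey ticks for the 14 alternative settings. JUN and EGR1 lie farthest from 0, and no tick of any gene crosses to the other side of 0.

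Levels were compared between genes per kilobase of exon. In WT the order of mean levels was JUND (428 normalised reads per kilobase), MYC (393), IER2 (275), ATF3 (75.9), JUN (52.9), FOSL1 (41.7), FOS (39.8), JUNB (37.2), EGR1 (24.6) and FOSL2 (22.3). The 2 libraries of FOSL1, FOS and JUNB overlapped in this order, and the other neighbours were separate. In MEK5DD JUN (136) stood above ATF3 (116), and EGR1 (7.65) stood last, below FOSL2 (30.7). FOSL1 (58.6) overlapped FOS (53.0) and FOS overlapped JUNB (48.8) here too, and JUNB was separate from FOSL2. The place of JUN above ATF3 rests on the length used: by the longest coding transcript ATF3 had 230 normalised reads per kilobase against 136 for JUN. By that length MYC stood above JUND in both groups. In WT it also put FOS (59.7) above JUN (52.9), and JUN then overlapped FOSL1 (47.1).

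**Figure D3:**
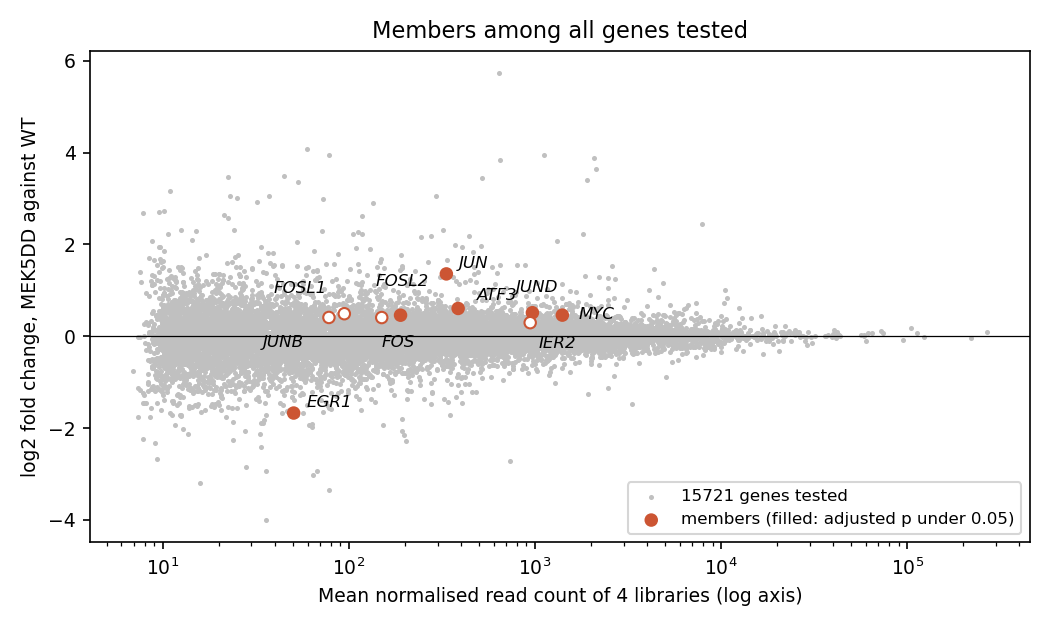
Mean normalised read count of the 4 libraries (log axis) against log2 fold change for the 15721 genes tested (grey) and the 10 members (orange, filled where called). JUN and EGR1 lie at the edge of the grey cloud, and the other members lie in its upper part.

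By log2 fold change JUN stood at percentile 99.2 of all genes tested, ATF3 at 95.1, JUND at 93.4, FOSL1 at 92.9, MYC at 92.1, FOSL2 at 92.1, JUNB at 90.6, FOS at 90.5 and IER2 at 85.4. EGR1 stood at percentile 0.267. The 3 genes with a mean of at least 100 whose pattern over the 4 libraries was nearest to that of JUN were S100A10, EHD2 and L1CAM (Euclidean distance of centred log2 values 0.12, 0.12 and 0.17). S100A10, an annexin partner gene, rose from 1233 and 1319 in WT to 3355 and 2877 in MEK5DD. For EGR1 the nearest were SORBS2, SOX21-AS1 and IGFBP5 (distances 0.25, 0.32 and 0.44), and SORBS2, an adaptor gene of the actin cytoskeleton, fell from 528 and 549 to 149.9 and 179. With 4 libraries such a distance mostly reflects the difference between the groups.

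Other AP-1 family genes moved both ways. This list and those below were chosen with earlier results of these data known, and some lists share genes. Their shares beside those of all genes are therefore a description only. Of the 12 in the list, 9 were tested, 3 rose and 2 fell (7.69% and 6.47% of all genes did). The median log2 fold change was 0.19, and 0.027 when WT replicate 1 was left out. With either WT library left out 1 of the 9 rose, and with no trend 0 rose (4 at an unadjusted p under 0.05; DESeq2 called 1). FOSB, BATF and BATF2 are not listed in the table and were not analysed here. MAF, which encodes a basic leucine zipper factor, fell from 241 and 253 to 99.95 and 103 (log2 fold change -1.28, SE 0.13), with a limma adjusted p of 4.99e-05. JDP2, which encodes a JUN dimerization partner that represses, rose by 0.48 (limma adjusted p = 0.0056, and 0.0939 with no trend). MAFK (0.52) and MAFG (0.25) also rose, and neither passed with DESeq2 or when a WT library was left out (MAFK adjusted p = 0.167 and 0.0511, MAFG 0.386 and 0.288, leaving out WT replicates 1 and 2). MAFK also missed the threshold when MEK5DD replicate 1 was left out (adjusted p = 0.111). MAFG was chosen after its values were seen.

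Immediate early genes outside the 10 had 14 of 35 tested genes higher and 2 lower (median log2 fold change 0.25), against 7.69% and 6.47% of all genes. With no trend 5 were higher and 0 lower (15 and 5 at an unadjusted p under 0.05), and DESeq2 called 11 and 1. RHOB, a small GTPase gene, stood at 319 and 314 in WT and 4109.9 and 3782 in MEK5DD. KLF6, a zinc finger factor gene, stood at 517 and 488 in WT and 2127 and 2121 in MEK5DD. ZFP36, whose protein degrades AU-rich messengers, rose from 84.6 and 111 to 222 and 193. The 2 that fell, chosen for mention after their values were seen, were SGK1 (-0.57) and TRIB1 (-0.30); TRIB1 did not pass when WT replicate 1 (adjusted p = 0.186) or WT replicate 2 (0.223) was left out. EGR2, the relative of EGR1 that was tested, had 13.2 and 17.7 in WT and 9.09 and 8.97 in MEK5DD (log2 fold change -0.70, limma adjusted p = 0.310).

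Genes of SRF, TCF, CREB and MEF2 factors, of MAP kinase pathways and of JUN and MYC turnover were counted next. Whether their products act on the members in these cells was not tested. Of 9 SRF, TCF and CREB factor genes 1 passed, ELK3 (0.38), whose adjusted p was 0.0508 without WT replicate 1 and 0.131 without WT replicate 2. SRF stood at 1376 and 1352 in WT and 1406 and 1361 in MEK5DD. Of 3 MEF2 genes MEF2D rose (0.30, limma adjusted p = 0.0446), which did not pass when WT replicate 1 (adjusted p = 0.372) or WT replicate 2 (0.208) was left out, or with DESeq2 (0.167). Of 22 MAP kinase pathway genes 5 rose, the introduced MAP2K5 included, and 17 did not pass (22.7% called, against 14.2% of all genes). With either WT library left out 3 rose. MAPK11 (0.93) and MAPK13 (0.69), genes of the p38 group, had the largest changes after MAP2K5. MAPK11 did not pass with DESeq2 (adjusted p = 0.0502) or with no trend (0.0634), nor MAPK13 with no trend (0.0544). Of 9 genes for turnover of JUN or MYC, the deubiquitinase gene USP28 rose (0.41, limma adjusted p = 0.0012) and the ubiquitin ligase gene SKP2 fell (-0.26). That is 22.2% called, against 14.2% of all genes. With no trend 0 of the 9 passed, USP28 included (1 was higher and 2 lower at an unadjusted p under 0.05). SKP2 did not pass when WT replicate 1 (adjusted p = 0.345) or WT replicate 2 (0.282) was left out.

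Among genes widely used as AP-1 targets, 9 of 17 tested rose and 2 fell, against 7.69% and 6.47% of all genes, with a median log2 fold change of 0.38. With no trend 5 rose. SPP1, the osteopontin gene, rose from 158 and 168 to 539 and 487, VIM from 454 and 444 to 1430.2 and 1198, and the adhesion receptor gene CD44 from 28.2 and 24.997 to 66.3 and 91.7. CCND1, which encodes cyclin D1, fell from 6254 and 6196 to 5163 and 5209 (log2 fold change -0.26, limma adjusted p = 0.0098), and VEGFA fell by 0.32 on the log2 scale. Neither fall passed when WT replicate 1 (adjusted p = 0.225 and 0.0997) or WT replicate 2 (0.193 and 0.325) was left out.

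Of 10 EGR1 corepressor and target genes 3 rose, F3 (0.92), TGFB1 (0.84) and PDGFB (0.83), against 7.69% of all genes. With no trend F3 (adjusted p = 0.0519) and PDGFB (0.117) did not pass. NAB2, the corepressor gene that EGR1 induces, had 321 and 325 in WT and 405 and 352 in MEK5DD (limma adjusted p = 0.191). The list of stress response partners of ATF3 had 30% of its genes called, against 14.2% of all genes. With no trend 0 of its 10 genes passed (2 were higher at an unadjusted p under 0.05). Of 10 stress response partners of ATF3, SESN2 (0.48), PPP1R15A (0.45) and ATF4 (0.24) rose, and none of the 3 passed when WT replicate 1 was left out (adjusted p = 0.0609, 0.112 and 0.210). Leaving out WT replicate 2 gave ATF4 an adjusted p of 0.322, and leaving out MEK5DD replicate 1 gave PPP1R15A one of 0.0607.

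The MYC network had 2 of 11 genes higher and 1 lower (27.3% called, against 14.2% of all genes). MYCL, a MYC paralog, fell from 612 and 504 to 413 and 429 (limma adjusted p = 0.0255), MXD4 (0.36) and MLXIP (0.35) rose, and none of the 3 passed when WT replicate 1 was left out (adjusted p = 0.398, 0.135 and 0.188). Leaving out WT replicate 2 gave MXD4 an adjusted p of 0.243. MYCN stood at 1461 and 1568 in WT and 1407 and 1205 in MEK5DD (adjusted p = 0.115), and MAX at 447 and 492 against 472 and 499. Of 18 MYC target genes 3 rose and 2 fell (27.8% called, against 14.2%), with a median log2 fold change of -0.044. When WT replicate 1 was left out 1 rose and 1 fell, and when WT replicate 2 was left out 0 rose (1 at an unadjusted p under 0.05) and 1 fell; edgeR called 3 higher and 2 lower and DESeq2 1 and 1, each from all 4 libraries. The polyamine enzyme gene ODC1 fell from 1380.2 and 1336 to 939.6 and 879 (limma adjusted p = 0.00034), CDK4 fell by 0.29 on the log2 scale and the ribosome assembly gene BOP1 rose by 0.37. With no trend 0 of the 18 MYC targets passed, ODC1 included (1 was higher and 1 lower at an unadjusted p under 0.05). In that setting 0 of the 11 MYC network genes passed (2 and 2 at an unadjusted p under 0.05). BOP1 did not pass when WT replicate 2 was left out (adjusted p = 0.0892), nor CDK4 when WT replicate 1 (0.306) or WT replicate 2 (0.129) was.

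**Figure D4:**
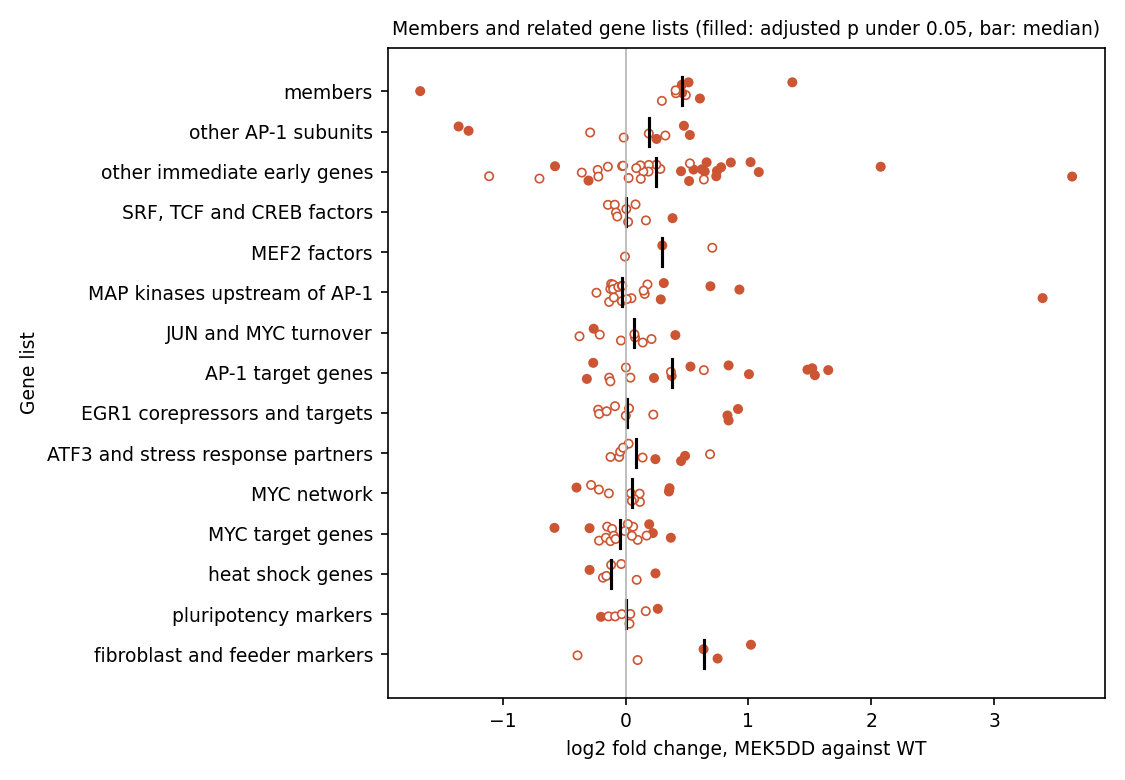
The log2 fold change of each tested gene (points, filled where the limma adjusted p is under 0.05) in the members and in related lists, with the median as a bar. The median of the fibroblast and feeder markers (0.64) lies farthest to the right. Next come the members (0.46), the AP-1 targets (0.38), the MEF2 factors (0.30) and the other immediate early genes (0.25). The medians of the SRF, TCF and CREB factors and of the MYC targets lie near 0.

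Heat and handling of cells also induce immediate early genes. Of the 8 heat shock genes in the list 7 were listed, with a summed normalised count of 34623 to 35867 in WT and 34957 to 37161 in MEK5DD, which overlap. HSPA8 made up most of that sum (25434 and 24331.5 in WT, 27534 and 25482 in MEK5DD), so the sum says little about the other genes. HSPB1 rose by 0.24 and DNAJB1 fell by 0.29 on the log2 scale, and neither passed when WT replicate 1 (adjusted p = 0.289 and 0.336) or WT replicate 2 (0.370 and 0.0902) was left out. Of 10 fibroblast and feeder markers 5 were listed and tested, with a summed normalised count of 7410 to 7503 in WT and 8889 to 9225 in MEK5DD. Of these 5, 3 rose, TAGLN (1.02), COL1A2 (0.75) and COL1A1 (0.64), against 7.69% of all genes. The median log2 fold change of the 5 was 0.64. With no trend COL1A1 missed the threshold (limma adjusted p = 0.0581). THY1, which made up most of the sum over the 5, had 5775 and 5704 in WT and 6214 and 6072 in MEK5DD (limma adjusted p = 0.302). PDGFRB had a lower mean in MEK5DD (61.1) than in WT (80.2; log2 fold change -0.39, limma adjusted p = 0.219). HSPA8, THY1 and PDGFRB were chosen for mention after their values were seen. The genes COL3A1, DCN, LUM, ACTA2 and POSTN are not listed and were not analysed here. Whether heat, handling or feeder cells had a part in the levels of the members was not tested.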

How the data were processed

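Poly(A) RNA of 4 libraries (WT and MEK5DD, 2 each, grouped by their labels) was sequenced as paired-end reads. Tools listed, with neither role nor order, in the submitters' processing notes are DESeq2 1.26.0, featureCounts 1.5.3, STAR and Trimmomatic 0.36, and the build is hg38. The deposited values are a signal, gene counts that the authors normalised; no source used here states the annotation or strand setting. Dividing by the smallest value of each library gave whole numbers (within 0.001 for 100% of genes), taken as the recovered reads.

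The main test was limma 3.58.1 (R 4.3.3) with a mean-variance trend on log2(value + 1), two-sided, over 15721 genes with at least 10 in at least 2 libraries, with a threshold of 0.05 after Benjamini-Hochberg adjustment over all of them. All 10 members passed that filter. Alternatives were pseudocounts of 0.5 and 5, other filters and scalings, no trend, a replicate block, each library left out, and edgeR 4.0.16 and DESeq2 1.42.0 on recovered reads; edgeR called 2304 genes. The procedure was tested on simulated data. Exon lengths came from GENCODE v29. Named genes were the members, MAP2K5, MAPK7, up to 3 called genes per list with the largest change, 10 preset genes and the 3 nearest patterns to JUN and EGR1; exceptions are stated. Members and lists were chosen with earlier results of these data known. FOSB, a preset gene, is not listed in the table. One gene counted in a list is not reported here.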

Additional observations from a re-analysis of the deposited data

How the results depend on the processing

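All 10 members kept their direction under all 14 alternatives, and JUN kept its call in each. Over all genes limma called 2226; it called 439 with no trend, and DESeq2 called 1368. A replicate block gave 3349 and leaving out 1 library gave 1157 to 4608: leaving out WT replicates 1 and 2 gave 1184 and 1157, and leaving out MEK5DD replicates 1 and 2 gave 3715 and 4608. Without the trend limma called 1 member higher and 0 lower, where EGR1 had an unadjusted p of 0.0016; edgeR and DESeq2 each called 1 member lower. The replicate block called 8 members higher. The same replicate numbers are not said to mark a shared culture, and the differences between replicates 1 and 2 correlated at 0.047 across genes in the 2 groups, so the block is not read as a pairing. The cause of these differences was not tested. With 2 libraries a group, exact permutation tests cannot go below 0.333, and EGR1, with 21 and 29 reads in MEK5DD, is limited by depth.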
